A study of Mus musculus with 8 samples.

Results

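p53, encoded by Trp53, and 9 genes that it is known to switch on (Cdkn1a, Mdm2, Bbc3, Bax, Phlda3, Ccng1, Eda2r, Trp53inp1 and Zmat3) were read in mouse colon in which Cre recombinase had been activated. These 10 genes were looked up by symbol among the 52143 genes of the RNA-Seq data, and each symbol had a single row. Of the 10, 9 passed the filter on low values, and so did 13164 genes in all. Distal colon had been collected from female mice on day 12 after the first of 5 daily tamoxifen injections, which were given from the age of 8 weeks. All 8 samples came from mice that carry Villin1-Cre-ERT, a tamoxifen-dependent Cre driven by the promoter of the Villin1 gene in the epithelium of the gut, and all mice received tamoxifen. The 4 control samples are from littermates with Villin1-Cre-ERT alone. The 4 Siglec-XII samples are from mice that also carry, in heterozygous form at the ROSA26 locus, the human SIGLEC12 gene behind a CAG promoter and an egfp-stop cassette that Cre removes (SIGLEC12-Villin1-Cre-ERT). No sample lacked Cre or tamoxifen, so the control values are levels after Cre activation and cannot be set against a colon without it. SIGLEC12, EGFP and Cre have no row, so no transgene value was there to set beside the labels.

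p53 is a transcription factor whose protein is kept scarce by Mdm2, a ubiquitin ligase, and is stabilised when DNA is damaged or a cell is otherwise stressed. It binds a pair of 10-base elements near its target genes and switches on genes for cell cycle arrest, apoptosis, repair and its own restraint. In the gut, p53 and its targets are known for the response of crypt cells to radiation and to breaks in DNA, and Cre itself cuts and rejoins DNA. Because p53 is set mostly through its protein, the RNA of its target genes is the usual readout of its activity in RNA-Seq data.

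The elements that p53 recognises were searched in the 300-base windows that RefSeq gives for GRCm38.p6, from 250 bases before to 50 after each transcript start. The p53 decamer consensus is its own reverse complement, so a match holds for both strands, and it occurred in 2745 of 32851 windows (8.36%). A pair of decamers separated by at most 13 bases occurred in 24 windows of 20 genes (0.0731%). Of the 10 genes, 8 have windows in this set, 11 in all, and Trp53inp1 and Zmat3 have none. Cdkn1a was the only one of the 8 with a pair, and a single decamer lay in the windows of Bax, Mdm2, Ccng1 and Trp53. A further Cdkn1a window, at chr17:29093519-29093818, had no match. The windows of Bbc3, Phlda3 and Eda2r had no match, which says only that these letters are not in the windows searched. The stretch with the pair is shown because Cdkn1a is the textbook p53 target, and the stretches with single decamers are shown beside it for comparison, read on the strand of the gene with the decamers in capitals.
Cdkn1a, chr17:29090866-29090975, plus strand, 2 decamers with a spacer of 12 bases: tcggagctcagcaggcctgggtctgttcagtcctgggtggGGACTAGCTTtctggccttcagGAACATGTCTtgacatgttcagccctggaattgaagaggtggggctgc
Mdm2, chr10:117710920-117710959, minus strand: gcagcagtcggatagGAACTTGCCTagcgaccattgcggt
Ccng1, chr11:40755447-40755486, minus strand: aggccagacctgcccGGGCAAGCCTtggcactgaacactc
Bax, chr7:45467075-45467114, minus strand: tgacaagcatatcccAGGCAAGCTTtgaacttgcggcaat
Trp53, chr11:69580269-69580308, plus strand: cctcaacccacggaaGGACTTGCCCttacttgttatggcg
The stretches were picked to end before the transcript start, and that of Cdkn1a was cut before the next exon, so they lie outside annotated exons by choice. A match to the consensus is a description of the letters, not a measurement of binding. Capitals mark exact matches only, so near matches stay in lowercase, among them the letters tgacatgttc directly after the second decamer of Cdkn1a. The pair in capitals and its spacer therefore need not be the element that p53 binds.

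The deposited values are log2(TPM + 1), where TPM is a gene's share of all transcripts after correction for length, so levels of different genes can be set side by side while the number of reads behind them is unknown. The 6 epithelial markers together held from 5510 to 8002 TPM in controls and from 5843 to 7819 TPM in Siglec-XII samples. The 2 highest of them were Epcam, from 1216 to 1614 TPM, and Krt8, from 3573 to 5352 TPM. The 6 leukocyte markers together reached at most 9.11 TPM. Pairs of samples stood apart within both groups. The median shift of a sample from the mean of all 8 was -0.16 and -0.30 log2 units in Siglec-XII 3 and 4 and lay between -0.04 and 0.15 in the other 6, and the median difference of Siglec-XII from control over all genes was -0.15. Controls 1 and 4 held far more RNA of squamous epithelium, the layered lining that meets the colon at the anus: 11 markers of it, chosen after the data were seen, summed to 20260 and 11230 TPM there, against 1811 and 1699 TPM in controls 2 and 3 and 802.5 to 5696 TPM in Siglec-XII samples. The summed smooth muscle markers ranged from 622.6 to 1003 TPM in controls and from 303.3 to 650.7 TPM in Siglec-XII samples. In bulk tissue, fewer cells of a type and less RNA per cell cannot be told apart.

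In the controls, the 10 genes spanned more than 2 orders of magnitude. Cdkn1a, which encodes the CDK inhibitor p21, stood highest at 201.8 ± 32.8 TPM (SD, n = 4), above 95% of the genes tested by its mean. Bax followed at 70.8 ± 7.04 TPM, and then Trp53 at 33.4 ± 1.66, Ccng1 at 32.3 ± 0.93, Trp53inp1 at 23.9 ± 1.35, Phlda3 at 22.4 ± 17.8, Mdm2 at 15.7 ± 2.45, Bbc3 at 8.72 ± 1.56, Zmat3 at 4.16 ± 0.44 and Eda2r at 0.53 ± 0.29 TPM (SD, n = 4 each). Cdkn1a was 2.85 times Bax and Bax 2.12 times Trp53, and the control ranges of these neighbours were apart. Trp53 and Ccng1, Trp53inp1 and Phlda3, and Phlda3 and Mdm2 overlapped among the controls and so could not be ordered. The steps from Ccng1 to Trp53inp1, from Mdm2 to Bbc3, from Bbc3 to Zmat3 and from Zmat3 to Eda2r were present in all 4 controls.
The spread between control samples was itself uneven. Ccng1, Trp53 and Trp53inp1 varied by 2.87%, 4.97% and 5.66% of their means, Bax and Zmat3 by 9.94% and 10.6%, and Mdm2, Cdkn1a and Bbc3 by 15.6%, 16.3% and 17.9%. Eda2r and Phlda3 varied by 54.9% and 79.3%, so for these genes a mean over 4 controls says little.

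**Figure D1:**
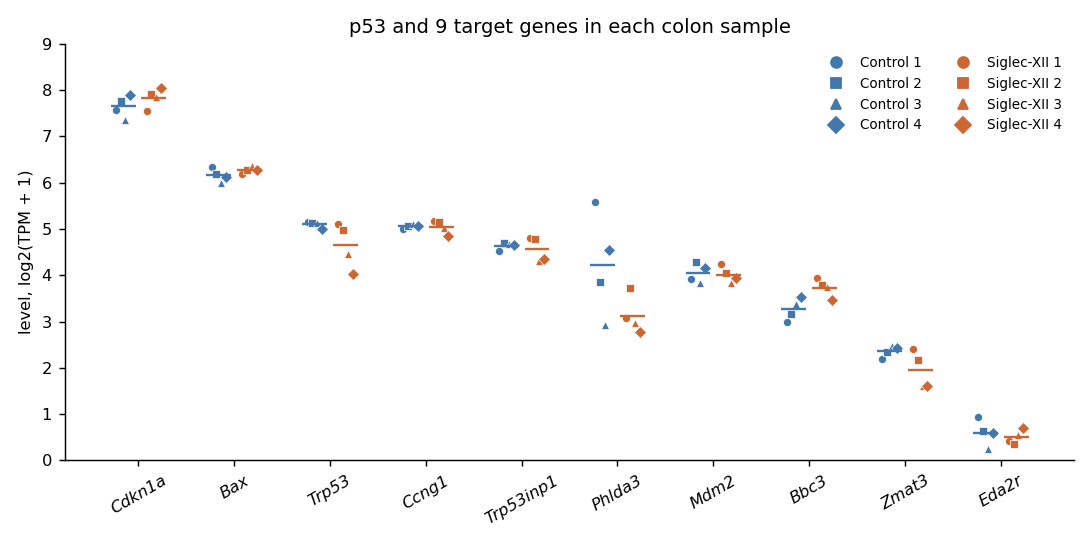
Level of Trp53 and 9 target genes as log2(TPM + 1) in each of 4 control (blue) and 4 Siglec-XII (orange) samples, in the order of the control means; each symbol is a sample and each line a group mean. The groups overlap in all 10 genes, controls of Phlda3 spread from 2.92 to 5.59, and Trp53 and Zmat3 are low in Siglec-XII 3 and 4.

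The comparison of Siglec-XII with control asks whether the p53 targets differ between mice with and without the SIGLEC12 allele, after Cre and tamoxifen in both. Only the Siglec-XII mice carry the egfp-stop cassette, so its removal by Cre and the expression of SIGLEC12 cannot be told apart. None of the 9 genes tested passed an adjusted p of 0.05 in limma, where the background over all genes was 0.038% (5 of 13164), and their smallest adjusted p was 0.51. At unadjusted p, 1 of the 9 was higher in Siglec-XII (Bbc3; background 1.19%) and 0 were lower (background 7.67%). Siglec-XII and control samples did not separate in any of the 9, against 1.05% of all genes that separated upward and 4.06% that separated downward. The estimates lay above 0 for Bbc3, Cdkn1a and Bax and below 0 for the other 6, with a median of -0.03, where the median over all genes tested was -0.15 and 78.1% of them lay below 0. Once each sample was centred on the median of its tested genes, 6 estimates lay above 0 and 3 below, and the median became 0.18 against 0.06 over all genes. The direction of Mdm2, Ccng1 and Trp53inp1 therefore depends on the scale, and so do several of the intervals that follow.

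**Figure D2:**
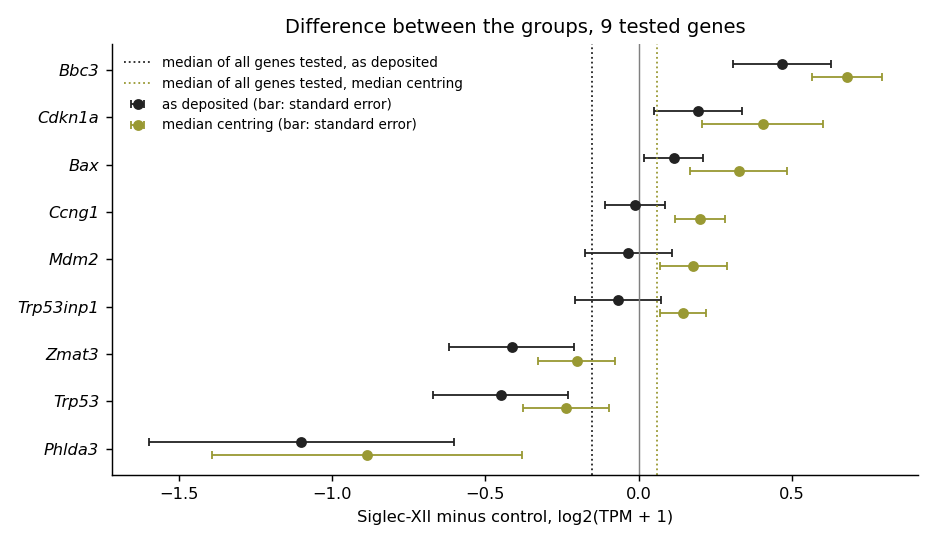
Difference between Siglec-XII and control means in log2(TPM + 1) for the 9 tested genes, on the deposited scale (black) and after centring each sample on its median (olive), with standard errors; dotted lines mark the median of all genes tested on each scale. Bbc3 lies furthest to the right on both scales (0.47 and 0.68) and Phlda3 furthest to the left (-1.10 and -0.89), with the widest bars.

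Trp53 itself (ENSMUSG00000059552; chromosome 11, 69580359 to 69591873, GRCm38) was 34.5, 34.1, 34.0 and 30.9 TPM in controls 1 to 4. It was 33.7, 30.7, 21.1 and 15.4 TPM in Siglec-XII samples 1 to 4. Siglec-XII 1 lay among the controls, Siglec-XII 2 just under the lowest of them, and Siglec-XII 3 and 4 well below. The difference was -0.45 log2 units (standard error 0.22, 95% interval -0.95 to 0.05, adjusted p = 0.51 by limma). It was -0.05 without Siglec-XII 3 and 4, the samples whose median gene was also low, -0.24 without Siglec-XII 4 alone, and -0.24 after median centring. The genes whose profile over the 8 samples lay closest to Trp53 were Eef2, a translation elongation factor, Pcbp1, an RNA-binding protein, and Cct8, a subunit of the chaperonin TRiC. Their root mean square distances between z-scored profiles were 0.05, 0.05 and 0.08. Being picked for this likeness, all of them were likewise lowest in Siglec-XII 4 (736.1 TPM for Eef2, against 1347 TPM in the lowest control). Of the 31-base windows of Trp53 transcripts 10.2% occur in another gene, mostly in the pseudogene Trp53-ps, so kallisto could divide some reads.

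Mdm2 (ENSMUSG00000020184; chromosome 10, 117688875 to 117710758), the ligase that marks p53 for degradation and is its target at the same time, was 14.1, 18.6, 13.3 and 16.9 TPM in controls 1 to 4. It was 17.8, 15.6, 13.3 and 14.4 TPM in Siglec-XII samples 1 to 4, within the range of the controls throughout. The estimate of -0.03 (standard error 0.14, 95% interval -0.36 to 0.29, adjusted p = 0.91 by limma) became 0.18 after median centring (standard error 0.11, adjusted p = 0.50). Mdm4, the relative of Mdm2 that blocks p53 without degrading it, was 7.05 ± 0.68 TPM in controls and 5.91 ± 0.96 TPM in Siglec-XII samples (SD, n = 4 each). Within a sample, an equal shift of all genes in log2(TPM + 1) cancels, but a shift that differs between genes does not. Mdm2 exceeded Mdm4 of the same sample by 1.09, 1.22, 0.73 and 1.15 log2 units in controls and by 1.27, 1.14, 1.34 and 1.21 in Siglec-XII samples. The groups overlapped, and the difference of 0.19 gave p = 0.14 (two-sided exact permutation test, adjusted p = 0.18 over the 5 pairs tested). Without control 3, which had the lowest value, it was 0.087.

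Ccng1 (ENSMUSG00000020326; chromosome 11, 40748552 to 40755311), which encodes cyclin G1, a p53 target that feeds back on Mdm2, varied least of the 10 genes among the controls. It was 31.2, 32.3, 33.4 and 32.4 TPM in controls 1 to 4 and 34.8, 34.4, 31.3 and 28.0 TPM in Siglec-XII samples 1 to 4. Siglec-XII 1 and 2 lay above every control and Siglec-XII 4 below every control. The difference of -0.01 had a standard error of 0.098 and a 95% interval from -0.23 to 0.21 (adjusted p = 0.95 by limma). After median centring the Siglec-XII samples lay above all controls, as in 5.74% of all genes on that scale, and the estimate was 0.20 (standard error 0.08, unadjusted p = 0.037, adjusted p = 0.46 by limma). On that scale 8.64% of all genes were higher at unadjusted p and 2.16% lower, and 1.19% of all genes separated downward.

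Cdkn1a (ENSMUSG00000023067; chromosome 17, 29090976 to 29100727), whose product p21 stops the cell cycle and which has a window with the pair of decamers shown above, was 188.4, 218.2, 163.0 and 237.5 TPM in controls 1 to 4. It was 187.5, 241.6, 229.1 and 261.8 TPM in Siglec-XII samples 1 to 4. Siglec-XII 2 and 4 were above every control, while Siglec-XII 1 lay among the lower controls. The difference was 0.19 (standard error 0.14, 95% interval -0.13 to 0.52, adjusted p = 0.56 by limma), and it was 0.40 after median centring (standard error 0.20, adjusted p = 0.47). With 1 sample left out it ranged from 0.095 without control 3 to 0.29 without Siglec-XII 1, and it was 0.13 without Siglec-XII 4. Ccnd1, which encodes cyclin D1 and drives the step that p21 blocks, was 25.5 ± 3.58 TPM in controls and 16.6 ± 6.66 TPM in Siglec-XII samples (SD, n = 4 each). Cdkn1a exceeded Ccnd1 by 2.67, 2.99, 2.60 and 3.48 log2 units in controls and by 2.92, 3.55, 3.93 and 4.78 in Siglec-XII samples, 0.86 more on average with overlapping groups (two-sided exact permutation test, p = 0.086, adjusted p = 0.18). Without Siglec-XII 4 the difference was 0.53. Cdkn1a shares 9.78% of its 31-base windows with other genes, mostly AC167363.2.

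Bbc3 (ENSMUSG00000002083; chromosome 7, 16308393 to 16318205) encodes PUMA, a BH3-only protein that frees BAX and BAK from their inhibitors. It was 6.99, 7.997, 9.34 and 10.6 TPM in controls 1 to 4 and 14.5, 12.7, 12.4 and 10.0 TPM in Siglec-XII samples 1 to 4. Siglec-XII 1, 2 and 3 were above every control, and Siglec-XII 4 fell between controls 3 and 4. The ratio of the mean TPM was 1.42, and the difference of 0.47 log2 units had a standard error of 0.16 and a 95% interval from 0.11 to 0.83 (unadjusted p = 0.017, adjusted p = 0.51 by limma). The estimate stayed positive under all 20 alternatives, from 0.38 without control 1 to 0.69 after quantile normalization, with no adjusted p under 0.186. After median centring the Siglec-XII samples, at 3.83, 3.73, 3.97 and 3.83 log2 units, all exceeded the controls at 3.02, 2.99, 3.28 and 3.36, as in 5.74% of all genes on that scale. The centred difference was 0.68 (standard error 0.11, adjusted p = 0.25 by limma). On the deposited scale the difference was 0.46 with controls 1 and 4 left out, and 0.60 without Siglec-XII 3 and 4.
Mcl1, the short-lived guardian of the mitochondria that PUMA binds, was 301.3 ± 24.3 TPM in controls and 252.2 ± 34.7 TPM in Siglec-XII samples (SD, n = 4 each). Bbc3 minus Mcl1 was -5.26, -5.21, -4.72 and -4.70 log2 units in controls 1 to 4 and -4.12, -4.42, -4.06 and -4.36 in Siglec-XII samples 1 to 4. The gap was narrower in every Siglec-XII sample than in any control. The difference of 0.73 gave p = 0.0286 (two-sided exact permutation test), the smallest value that the 70 labelings allow, and an adjusted p of 0.14 over the 5 pairs, so it did not pass the correction.

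Bax (ENSMUSG00000003873; chromosome 7, 45461697 to 45466898), which forms the pore that opens the outer mitochondrial membrane, was 79.9, 71.8, 63.03 and 68.5 TPM in controls 1 to 4 and 71.7, 76.0, 81.9 and 76.4 TPM in Siglec-XII samples 1 to 4. Controls 1 and 2 reached into the range of the Siglec-XII samples. The difference of 0.11 had a standard error of 0.096 and a 95% interval from -0.10 to 0.33 (adjusted p = 0.59 by limma), and median centring gave 0.33 (standard error 0.16, adjusted p = 0.47). It was 0.060 without control 3 and 0.17 without control 1. Set against Bcl2, the founding inhibitor of the family, Bax was 4.87 ± 0.17 log2 units higher in controls and 5.13 ± 0.23 higher in Siglec-XII samples (SD, n = 4 each). The difference was 0.26 and the groups overlapped (two-sided exact permutation test, p = 0.11, adjusted p = 0.18). Set against Bcl2l1, which encodes BCL-XL, the values were 0.90 ± 0.12 and 1.22 ± 0.45 (SD, n = 4 each). Siglec-XII 1 had the lowest of these values and Siglec-XII 3 and 4 the highest (difference 0.31, two-sided exact permutation test, p = 0.29, adjusted p = 0.29), and the difference was 0.50 without Siglec-XII 1 and 0.17 without Siglec-XII 4. Of the 31-base windows of Bax 11.1% occur in other genes, mostly Gm45808.

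**Figure D3:**
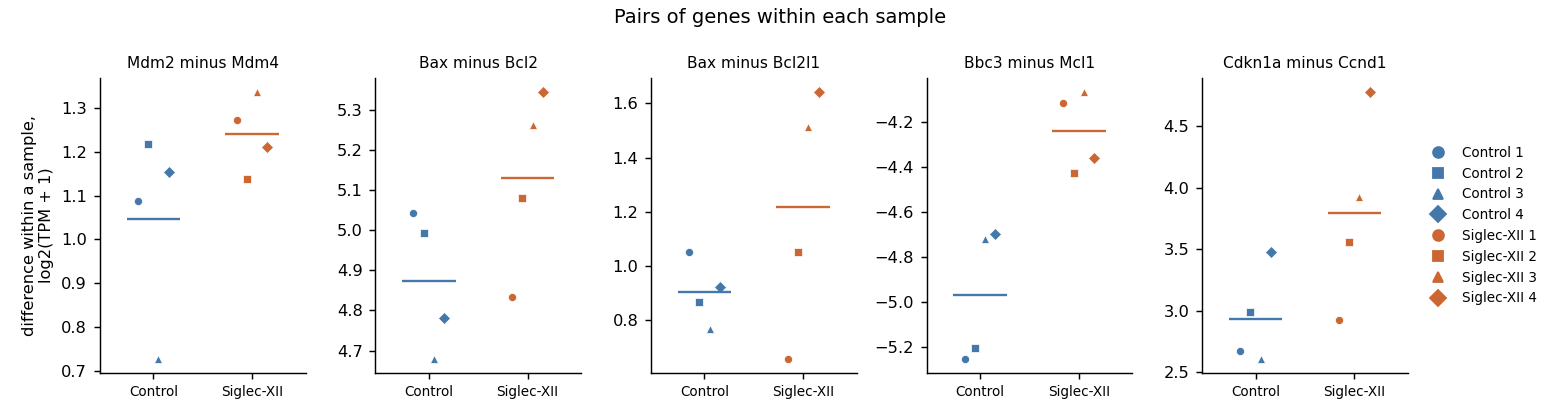
Difference in log2(TPM + 1) between 2 genes of the same sample, for 5 pairs, in 4 control and 4 Siglec-XII samples, with group means as lines and a scale of its own in each panel. The groups are apart only for Bbc3 minus Mcl1, where controls lie between -5.26 and -4.70 and Siglec-XII samples between -4.42 and -4.06.

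Trp53inp1 (ENSMUSG00000028211; chromosome 4, 11156431 to 11174379), a stress protein that helps p53 turn on apoptosis genes and takes part in autophagy, was 21.9, 24.8, 24.4 and 24.3 TPM in controls 1 to 4. It was 27.1, 26.6, 19.0 and 19.4 TPM in Siglec-XII samples 1 to 4. The Siglec-XII samples thus lay on both sides of the controls, with 1 and 2 above all of them and 3 and 4 below. The difference of -0.07 (standard error 0.14, 95% interval -0.39 to 0.25, adjusted p = 0.82 by limma) turned to 0.16 without Siglec-XII 3 and 4 and to 0.14 after median centring.
Eda2r (ENSMUSG00000034457; chromosome X, 97333840 to 97377216), the receptor of ectodysplasin A2 in the TNF receptor family, did not reach 1 TPM in any sample and was not tested. It was 0.90, 0.54, 0.18 and 0.51 TPM in controls and 0.34, 0.27, 0.46 and 0.63 TPM in Siglec-XII samples, with full overlap of the groups.

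Phlda3 (ENSMUSG00000041801; chromosome 1, 135766119 to 135769136), whose product competes with AKT for membrane lipids and so restrains survival signals, showed the largest estimate and the largest error of the 10 genes. It was 47.2, 13.4, 6.58 and 22.4 TPM in controls 1 to 4 and 7.37, 12.1, 6.77 and 5.79 TPM in Siglec-XII samples 1 to 4. Controls 1 and 4 stood above all others, while control 3 was lower than 3 of the 4 Siglec-XII samples. The difference of -1.10 log2 units had a standard error of 0.50 and a 95% interval from -2.23 to 0.03 (adjusted p = 0.51 by limma).
Phlda3 was highest in the samples with the most squamous epithelium RNA. All 11 squamous markers were above 0 in every library. All 11 had a lower mean in Siglec-XII samples, with a median difference of -1.36, where 78.1% of all genes lay below 0. Only Dsg3, a desmosomal cadherin, passed at unadjusted p, where 7.67% of all genes were lower. Krt14, a keratin of basal squamous cells, was 5674, 275.6, 250.5 and 3252 TPM in controls 1 to 4 and 257.7, 1652, 119.9 and 157.0 TPM in Siglec-XII samples 1 to 4. Controls 1 and 4 led in this marker as they did in Phlda3, and Siglec-XII 2 led its group in both. Without controls 1 and 4 the difference of Phlda3 was -0.26 (standard error 0.34, adjusted p = 0.71 by limma), and with the mean of the squamous markers as a covariate it was -0.31 (standard error 0.32, adjusted p = 0.93). It was -0.65 without control 1 alone and -1.53 without control 3 alone (adjusted p = 0.45 and 0.40 by limma). Controls 1 and 4 held the highest Phlda3 values, so leaving them out had to move the difference toward 0. The covariate was built from markers chosen after the data were seen. The part of squamous tissue in the Phlda3 values was not tested.
The same samples led in Trp63, the p53 relative that maintains squamous epithelium, at 12.8, 5.23, 2.79 and 12.3 TPM in controls and 3.92, 6.25, 1.42 and 2.05 TPM in Siglec-XII samples. Perp, a desmosome gene that both p53 and p63 are known to activate, was 1132, 340.9, 305.1 and 705.4 TPM in controls and 346.3, 437.0, 298.7 and 306.3 TPM in Siglec-XII samples. The profiles closest to Phlda3 belonged to Dlx5, Anxa1 and Gsto1, at distances of 0.09, 0.10 and 0.11. Being picked for this likeness, Gsto1 was also highest in controls 1 and 4, at 5763 and 2421 TPM, against at most 1623 TPM elsewhere. The squamous markers, Trp63, Perp and these 3 genes were named after their values were seen.

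**Figure D4:**
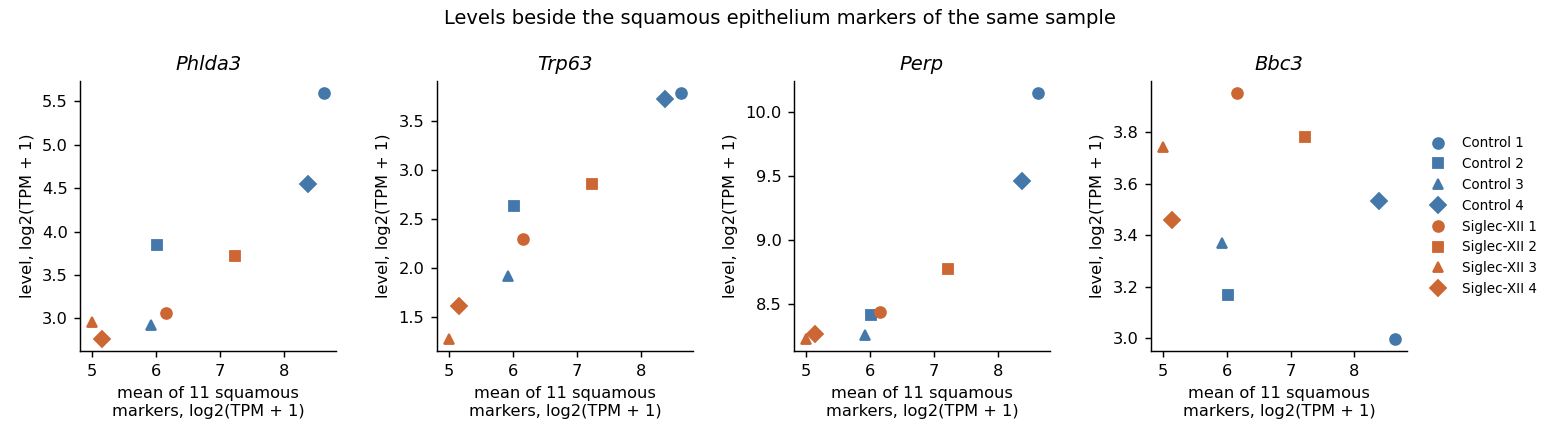
Level of Phlda3, Trp63, Perp and Bbc3 (vertical axes, log2(TPM + 1), each with its own range) against the mean of 11 squamous epithelium markers in the same sample (horizontal axis, log2(TPM + 1)); each symbol is a sample. Controls 1 and 4 lie at the upper right for Phlda3, Trp63 and Perp, with marker means of 8.64 and 8.38, while for Bbc3 control 1 is the lowest sample.

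Zmat3 (ENSMUSG00000027663; chromosome 3, 32334792 to 32366014), a zinc finger protein that binds RNA and affects splicing and mRNA stability, was 3.59, 4.04, 4.58 and 4.42 TPM in controls 1 to 4. It was 4.29, 3.52, 2.06 and 2.03 TPM in Siglec-XII samples 1 to 4. As for Trp53, Siglec-XII 1 lay inside the range of the controls and Siglec-XII 3 and 4 well below it. The difference was -0.41 (standard error 0.20, 95% interval -0.88 to 0.05, adjusted p = 0.51 by limma), and it was -0.07 without Siglec-XII 3 and 4 and -0.20 after median centring.

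Of 26 other p53 targets, 24 were tested and none passed the adjusted limit. At unadjusted p, 0 were higher and 3 lower in Siglec-XII, against 1.19% and 7.67% of all genes. The 3 were Plk2 and Plk3, polo-like kinases of the stress response, by -0.60 and -0.52, and Sesn2, a sestrin that restrains mTORC1, by -0.59. After median centring the count turned to 3 higher (Btg2, Tnfrsf10b and Pmaip1) and 0 lower, against 8.64% and 2.16% of all genes on that scale. Estimates were above 0 in 6 and below 0 in 18, with a median of -0.18 that was 0.04 after median centring, close to the medians of all genes. The highest estimates belonged to Btg2, an antiproliferative gene (67.3 ± 11.1 TPM in controls and 82.2 ± 18.9 TPM in Siglec-XII, SD, n = 4 each), and Tnfrsf10b, the mouse TRAIL receptor (3.14 ± 0.64 and 3.98 ± 0.95 TPM), at 0.28 and 0.26 (adjusted p = 0.52 and 0.54 by limma), and at 0.49 and 0.47 after median centring (adjusted p = 0.46 for both).
Of 21 genes that set the amount or activity of p53, 19 were tested. At unadjusted p, 0 of these were higher and 2 lower, against 1.19% and 7.67% of all genes. Their estimates were below 0 in 18, as were those of 78.1% of all genes (median -0.35, and -0.14 after median centring). After median centring 1 was higher, Rchy1, and 0 were lower, against 8.64% and 2.16% of all genes on that scale. Sirt1, a deacetylase of p53, was 6.82, 7.51, 7.43 and 8.37 TPM in controls and 4.90, 6.27, 5.13 and 4.87 TPM in Siglec-XII samples. Every Siglec-XII sample lay below every control, as in 4.06% of all genes (difference -0.44, standard error 0.13, adjusted p = 0.51 by limma, and -0.23 after median centring). Ppp1r13l, which encodes the p53 inhibitor iASPP, differed by -0.94 (standard error 0.39). It was 30.1, 16.3, 11.7 and 21.6 TPM in controls 1 to 4 and 15.6, 14.7, 5.51 and 5.68 TPM in Siglec-XII samples 1 to 4. Controls 1 and 4 were rich in squamous RNA, and Siglec-XII 3 and 4 had a low median gene. The part of either in this difference was not tested. Rchy1, another ligase for p53, had the highest estimate of the list, 0.02 as deposited and 0.23 after median centring.

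All 16 genes that sense or repair double-strand breaks had estimates below 0, as did 78.1% of all genes tested (median -0.39, and -0.18 after median centring, where 3 lay above 0). At unadjusted p 3 were lower, against 7.67% of all genes: Lig4 and Xrcc6 of end joining, by -0.55 and -0.43, and Rnf168, a ubiquitin ligase at breaks, by -0.28. Only Lig4 was lower after median centring, against 2.16% of all genes on that scale. None of the 16 passed the adjusted limit. Among 17 tested BCL2 family, apoptosome and caspase genes the median was -0.04, and 0.17 after median centring. Bmf, a BH3-only gene like Bbc3, was 4.41, 4.25, 3.60 and 3.83 TPM in controls and 5.52, 4.82, 5.62 and 4.83 TPM in Siglec-XII samples. The groups did not overlap, as in the 1.05% of all genes that separated upward (difference 0.30, standard error 0.12, adjusted p = 0.51 by limma). The other tested BH3-only genes of this list, Bcl2l11, Bid, Bik and Bad, had estimates of -0.21, -0.19, -0.04 and -0.02. After median centring these were -0.001, 0.02, 0.17 and 0.19, against 0.52 for Bmf. Mcl1 was the gene of that list that was lower at unadjusted p, by -0.26, against 7.67% of all genes. Its estimate was -0.05 after median centring. On that scale 3 genes of the list were higher at unadjusted p and 0 lower, against 8.64% and 2.16% of all genes.
Of 15 genes of the G1 to S transition, 0 were higher and 3 lower at unadjusted p (Ccnd1 by -0.67, Cdk4 by -0.41 and Ccne1 by -0.34), against 1.19% and 7.67% of all genes. The CDK inhibitor Cdkn1b had the highest estimate, 0.17 (median of the list -0.25, and -0.04 after median centring). After median centring Cdkn1b was higher at unadjusted p, with an estimate of 0.39, and 0 were lower, against 8.64% and 2.16% of all genes on that scale. All 9 proliferation genes had estimates below 0, again beside 78.1% of all genes (median -0.35, and -0.14 after median centring), none past an unadjusted p of 0.05. Control 1 stood far below the other controls in most of these 9 genes, so their spread among the controls was wide. Pcna, the sliding clamp of replication, which was not low in control 1, was 80.7 ± 3.12 TPM in controls and 66.9 ± 11.6 TPM in Siglec-XII samples (SD, n = 4 each). The groups did not overlap, as in the 4.06% of all genes that separated downward, and the difference of -0.28 was -0.07 after median centring. The 6 smooth muscle markers all had lower means in Siglec-XII samples (median -0.69, and -0.47 after median centring), among them Actg2 by -0.67 and Tagln by -0.53, while the median of the 6 epithelial markers, -0.05, turned to 0.16 after median centring. Summed markers of other cells were low: from 3.38 to 9.11 TPM in controls and from 2.27 to 3.28 TPM in Siglec-XII samples for 6 leukocyte genes, from 2.41 to 4.03 and from 1.48 to 1.88 TPM for 5 endothelial genes, and from 2.81 to 3.73 and from 1.63 to 2.32 TPM for 5 nerve and glia genes. These 3 sums did not overlap between the groups, whereas those of 4 adipocyte genes (5.02 to 30.8 and 4.64 to 14.2 TPM) and 4 erythrocyte genes (6.26 to 265.0 and 35.3 to 175.8 TPM) did. The part of the lower RNA of these cell types in the pathway lists was not tested.

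**Figure D5:**
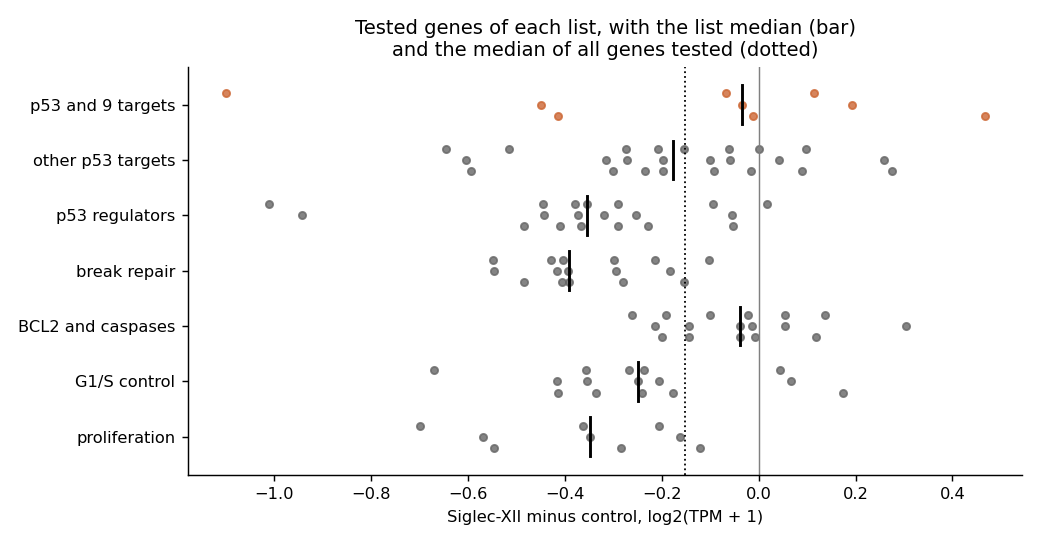
Difference between Siglec-XII and control in log2(TPM + 1) for every tested gene of 7 lists; each point is a gene, the bar is the median of the list and the dotted line the median of all genes tested (-0.15). The p53 genes (orange) run from -1.10 to 0.47 around a median of -0.03, and the break repair and proliferation genes all lie below 0.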

How the data were processed

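RNA of 8 mouse colon samples, 4 control and 4 Siglec-XII, was analysed, in the groups that the labels give. The authors deposited log2(TPM + 1) values for 52143 genes, which they made with kallisto 0.45.0 on GRCm38 according to the submitters' processing notes. The study's methods name another kallisto release, a human reference, a test of gene counts, and 3 technical libraries per sample, and the labels give a total RNA kit where the methods give an mRNA kit; 1 column per sample was used, and gene counts were not analysed here. The design text mentions 3 mice per condition, whereas the labels list 4 samples in each group, and nothing else says that each sample is a separate mouse, so p-values measure the spread between these samples. The highest correlation between 2 samples was 0.987, and none repeated another. Sequencing depth cannot be read from TPM, and no counting error is given. All value columns were assigned to samples.

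The 13164 genes that reached 1 TPM in 4 or more samples were fitted in R 4.3.3 by limma 3.58.1 (eBayes with trend, two-sided) without adjustment between samples, with Benjamini-Hochberg adjustment over all of them. Fold changes on the log2(TPM + 1) scale understate those of low genes. Pairs of genes were compared by two-sided exact permutation over 70 labelings, with Python 3.11.15 and scipy 1.17.1, and figures were drawn with matplotlib 3.10.9. The fit was tested on simulated data. Positions are from GENCODE M21 (GRCm38), which lists 98.5% of the deposited gene identifiers, and promoter windows are from RefSeq (GRCm38.p6). Lists were the 6 pathway lists and the marker lists described in the report, and genes were named if they were among the 10 genes or the 5 pairs, had the smallest p of a list in each direction (the 2 smallest for both p53 lists), were among the 2 highest epithelial and smooth muscle markers, or lay closest to Trp53 or Cdkn1a over the 8 samples; the genes closest to Cdkn1a are not reported here. Counts of 5 or fewer could name their genes, and the other tested BH3-only genes were named for comparison with Bmf. The genes, lists and tests were chosen with earlier results of these data known. Alternatives were no filter or a TPM of 5, a pseudocount of 0.1, quantile normalization, median centring, limma array weights, unmoderated variance, a block for the sample number, summed repeated symbols, Siglec-XII 3 and 4 left out and each sample left out. The squamous marker list, its use as a covariate and the fit without controls 1 and 4 were added after the data were seen.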

Additional observations from a re-analysis of the deposited data

Results flagged for a closer look

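In 3 of 70 groups of 4 samples checked, where 3.5 are expected by chance, 1 sample lay far from the other 3. Trp53 in control 4 (5.00 log2(TPM + 1)) was separated from the other controls by 0.86 of the range of its group. Trp53inp1 in control 1 (4.51) was separated by 0.84 of the range, although both ranges were narrow. Actg2, a smooth muscle actin, in Siglec-XII 4 (5.91) was separated by 0.91 of the range, in the sample with the lowest sum of smooth muscle markers (303.3 TPM).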

How the results depend on the processing

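No adjusted call was made for any of the 9 p53 genes under any of 20 alternatives, and Trp53, Cdkn1a, Bbc3, Bax, Phlda3 and Zmat3 kept their direction in all that tested them. The 5 adjusted calls over all genes became 3 with no filter, a filter at TPM 5, unmoderated variance, controls 1 and 4 left out or the squamous covariate, 2 without Siglec-XII 3 and 4, 18 with array weights, and 2 to 6 with 1 sample left out. The 1167 unadjusted calls became 2043, 699, 1851, 362, 561 and 266 with no filter, TPM 5, array weights, Siglec-XII 3 and 4 left out, controls 1 and 4 left out and the squamous covariate, and 483 to 2365 with 1 sample left out. The share of these calls that were higher in Siglec-XII was 13.5% as deposited, 80.0% after median centring and 63.3% after quantile normalization. Estimates above 0 among the p53 genes were 3 as deposited, 6 after quantile normalization, median centring or omission of Siglec-XII 3 and 4, 5 with array weights or the covariate, and 3 to 5 with 1 sample left out. Mdm2 reversed to 0.159, 0.179 and 0.0924 with quantile normalization, median centring and Siglec-XII 3 and 4 left out, and ranged from -0.107 to 0.046 with 1 sample left out. Ccng1 reversed to 0.13, 0.20 and 0.10 under the same settings, to 0.068 with array weights and 0.016 with the covariate, and ranged from -0.0515 to 0.04997. Trp53inp1 reversed to 0.10, 0.14 and 0.16, to 0.10 with array weights and 0.0015 with the covariate, and ranged from -0.149 to 0.0145. The cause was not tested. Same-numbered samples did not deviate together (correlations -0.17, -0.20, 0.10 and -0.002, with 0 controls closest to their own number). With the number as a replicate block, Bbc3 minus Mcl1 stayed at 0.73 with p = 0.125, the smallest that 16 sign flips allow (exact), and no p53 gene passed an unadjusted p of 0.05. With 4 samples a group and unknown depth, small differences of low genes such as Eda2r cannot be resolved.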
